A study of Rattus norvegicus with 24 samples.

Results

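NRF2 (gene symbol Nfe2l2) and 9 genes around it, the inhibitor Keap1 and the antioxidant genes Slc7a11, Gclc, Gclm, Gsr, Txnrd1, Srxn1, Nqo1 and Hmox1, were examined in the developing brain of rat fetuses from 4 groups of dams. The members were taken by gene symbol, from a list drawn up with earlier results of these data known, and all 10 were found among the 17420 genes of the expression table. All 10 were also above the lowest possible value in every pup and were therefore among the 12654 genes tested. RNA sequencing was done on hippocampus and neocortex of 24 Sprague-Dawley pups on embryonic day 18, with 6 pups in each group and 3 pups from each of 2 litters. In the MAM group, dams received 22 mg/kg of methylazoxymethanol acetate, a DNA-methylating agent that acts on dividing cells, by intraperitoneal injection on gestational day 17. In the Poly I:C group, dams received 7.5 mg/kg of polyinosinic:polycytidylic acid, a synthetic double-stranded RNA that mimics viral infection, by the same route on the same day. In the Low Protein group, dams ate a diet with 6.1% protein from gestational day 11 to 18, and the control diet held 20.3% protein. Saline-treated dams were the controls, and tissue was taken 18 h after injection. The sources used here give the control diet for control rats, without saying whether the MAM and Poly I:C dams ate it or whether the dams on the Low Protein diet were injected. The dam was treated and the pup was measured, so p-values describe the spread between pups, of which 3 at a time share a dam.

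NRF2 is a transcription factor that is made constantly and, in unstressed cells, handed over for degradation by KEAP1, an adaptor of a CUL3 ubiquitin ligase. Oxidants and electrophiles modify cysteines of KEAP1, after which NRF2 escapes degradation, enters the nucleus and, paired with a small MAF protein, binds antioxidant response elements. Its regulation is thus largely at the level of the protein, and the mRNA of its targets is the usual readout of its activity. The targets supply cystine and build glutathione (Slc7a11, Gclc, Gclm), recycle glutathione (Gsr), run the thioredoxin system (Txnrd1, Srxn1), and detoxify quinones and heme (Nqo1, Hmox1). The 3 treatments are maternal models of disturbed brain development, and the comparison asks whether these genes differed between the offspring of treated and saline dams, or between treatments.

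The sequencing gave an estimated 24.3 to 63.0 M reads (megareads) per pup (median 36.7), with group medians of 43.0 in Low Protein, 41.4 after MAM, 29.9 after Poly I:C and 33.0 in saline. The level unit is the deposited TPM value, in which each pup sums to 70350.1 and not to the usual TPM total. These values behave as reads per base of the whole gene, introns included, so the order of levels between genes is on that scale only. Of 15 markers of the dissected dorsal forebrain, 13 were in the table, Emx1 and Eomes were not, and their summed level was between 524 and 708 TPM in all pups. Markers of blood, vessels, meninges, choroid plexus and ventral forebrain were also present in every group. In such bulk tissue, fewer cells of a type and less RNA per cell cannot be told apart.

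On this scale Keap1 was the highest of the 10 genes, with a mean over the 24 pups of 3.90 TPM and a range of 3.23 to 4.79. Txnrd1 followed at 2.61 (2.25 to 3.07) and Hmox1 at 1.29 (0.768 to 1.93), and these 3 ranges did not overlap. Gclc (mean 0.595) and Gsr (0.550) came next, with overlapping ranges, and Gclm was at 0.459, with a range of 0.331 to 0.539 that overlapped those of Gclc and Gsr. Nqo1 (0.302), Srxn1 (0.295), Slc7a11 (0.262) and Nfe2l2 (0.251) were the lowest and could not be placed in order within their spread between pups. Srxn1 rested on an estimated 42.8 to 140 reads per pup, for which counting alone gives an SD of about 0.16 on the log2 scale at the median depth.

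The 10 genes differed widely in how much they varied between pups. The coefficient of variation over the 24 pups was 4.46% for Gsr, and only 0.743% of the genes tested had a lower one. For Slc7a11 it was 39.9%, higher than that of 93.2% of the genes tested, against a median of 13.7%. Txnrd1 (7.51%), Gclc (8.74%) and Keap1 (9.12%) were steady, whereas Srxn1 (19.5%) and Hmox1 (22.3%) varied more. A difference of a given size was therefore resolved better in Gsr or Txnrd1 than in Slc7a11.

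**Figure D1:**
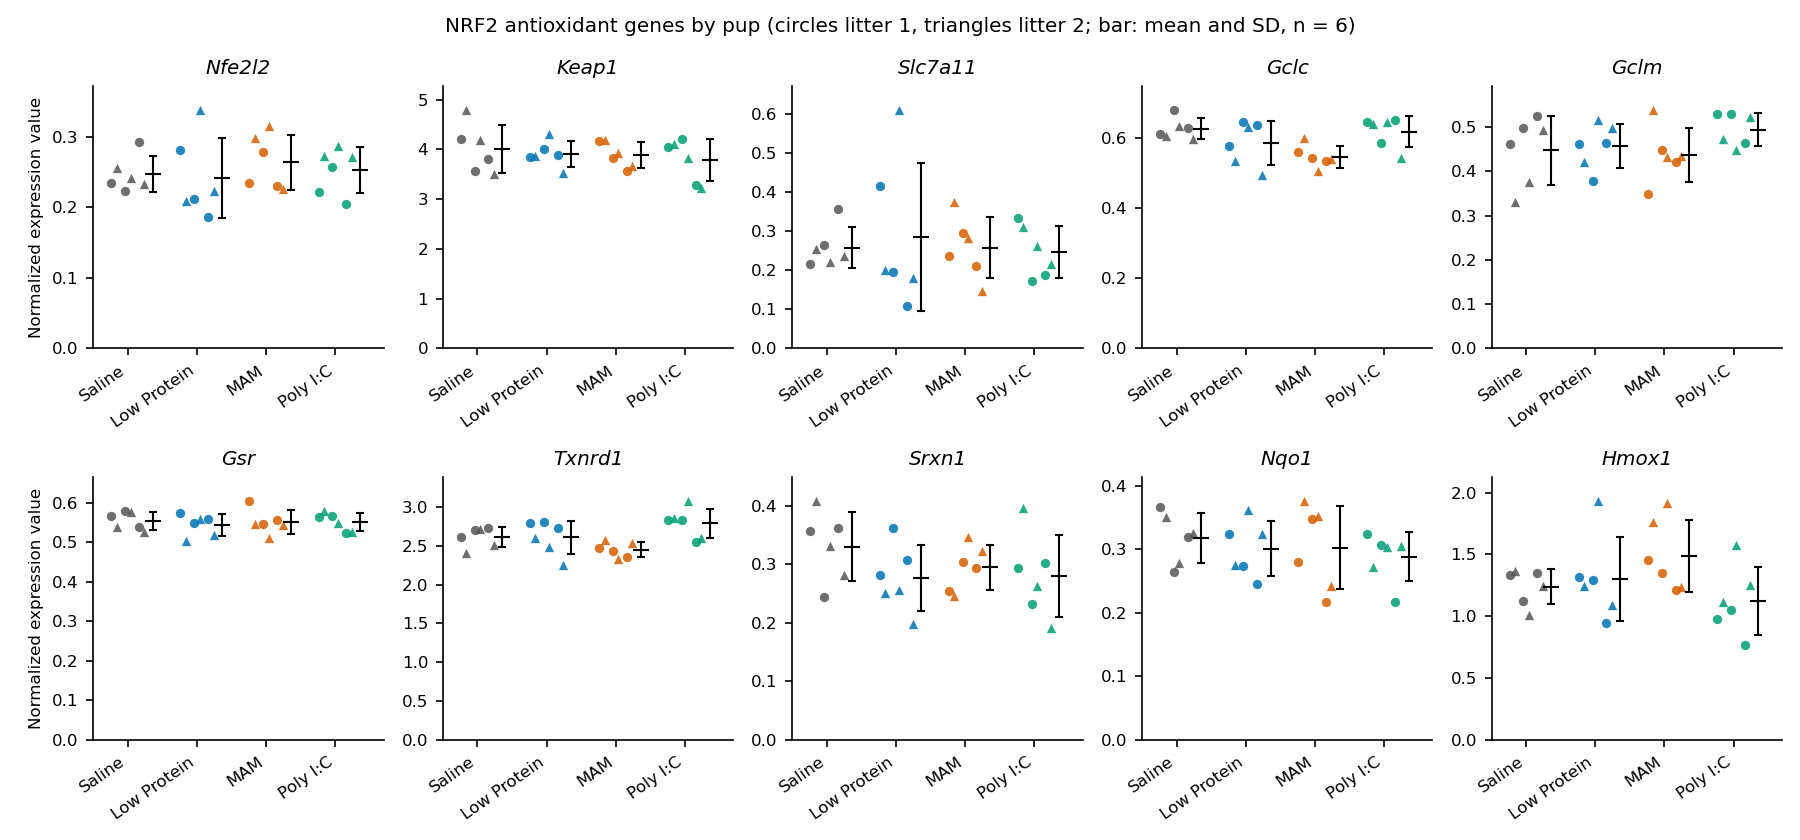
Deposited TPM values (vertical axes, linear and starting at 0) of the 10 genes in each of the 24 pups, by maternal group, with circles for litter 1 and triangles for litter 2. Black bars give the mean and SD of the 6 pups in a group. Gclc has its lowest mean after MAM (0.548), Txnrd1 has a higher mean after Poly I:C (2.79) than after MAM (2.45), and Slc7a11 spreads from 0.107 to 0.611 within Low Protein.

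With limma on log2 TPM and an unadjusted p under 0.05, 0 of the 10 genes differed from saline in Low Protein, where 7.20% of all genes tested did. In MAM, 1 of 10 differed (Gclc, lower), against 10.0% of all genes. In Poly I:C, 0 of 10 differed, against 9.44% of all genes. The study used such a p alone for MAM and added a minimum fold change for Poly I:C and Low Protein, which was not applied here. With a Benjamini-Hochberg adjusted p under 0.05 over all genes tested, 0 of 10 differed in each comparison with saline, as did 0% of all genes in Low Protein, 0.0158% after MAM and 0% after Poly I:C. By the exact permutation test, unadjusted, the counts of 10 at p under 0.05 were 0 in Low Protein (9.46% of all genes tested), 2 after MAM (Gclc and Txnrd1, beside 13.6% of all genes) and 0 after Poly I:C (7.82%). No member separated from saline without overlap of the 6 pups and 6 pups, which 0.680% of genes did in Low Protein, 0.901% after MAM and 0.450% after Poly I:C. The median log2 difference of the 10 genes from saline was -0.045 in Low Protein, -0.038 after MAM and -0.051 after Poly I:C, beside medians of all genes tested of -0.014, -0.071 and 0.0035. By sign alone, 8 genes were below saline in Low Protein, 8 after MAM and 7 after Poly I:C, and these 3 comparisons share the saline pups. The tally after MAM depended on the scaling, and was 4 of 10 by the median of ratios and by the upper quartile of each pup.

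**Figure D2:**
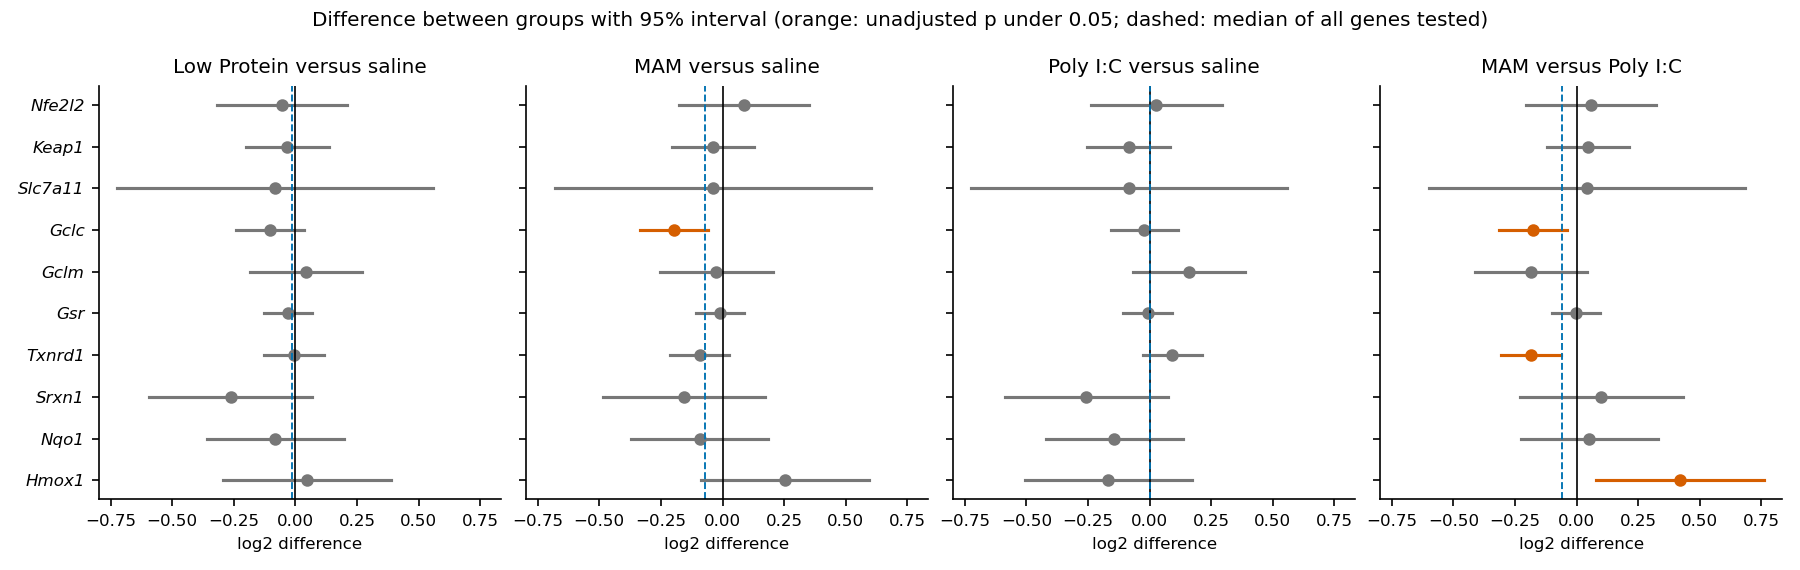
Difference in mean log2 TPM (horizontal axis) with its 95% confidence interval for each gene in 4 comparisons. Orange marks an unadjusted p under 0.05, and the dashed line is the median of all genes tested. Gclc after MAM is the only orange interval among the 3 comparisons with saline, at -0.20, and MAM against Poly I:C has 3.

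Neither regulator passed the test in any comparison. Nfe2l2 itself averaged 0.247 ± 0.025 TPM in saline, 0.242 ± 0.057 in Low Protein, 0.264 ± 0.039 after MAM and 0.253 ± 0.032 after Poly I:C (mean ± SD, n = 6). Its log2 differences from saline ran from -0.056 in Low Protein to 0.088 after MAM, each with an SE of 0.13. Keap1, which holds NRF2 for degradation, averaged 4.01 ± 0.49 TPM in saline, 3.90 ± 0.25 in Low Protein, 3.89 ± 0.25 after MAM and 3.78 ± 0.43 after Poly I:C. Its lowest log2 difference from saline was -0.085 after Poly I:C, with a 95% interval of -0.25 to 0.083. Because NRF2 is controlled mainly after translation, these mRNA levels do not measure its activity.

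Among the glutathione genes, Gclc, the catalytic subunit of glutamate-cysteine ligase, which makes the rate-limiting bond of glutathione, was lower after MAM. Its TPM ran from a lowest of 0.599 through a median of 0.622 to a highest of 0.682 in saline, and from 0.506 through 0.542 to 0.600 after MAM. All 6 MAM pups were below the saline median, and the groups touched only where the highest MAM pup met the lowest saline pup. In Low Protein it ran from 0.494 through 0.605 to 0.646, and after Poly I:C from 0.545 through 0.643 to 0.653. The log2 difference between MAM and saline was -0.20 (SE 0.066, 95% interval -0.34 to -0.060), beside a median of all genes tested of -0.071 on the deposited scale. Gclc was thus at 0.872 times the saline level, with an adjusted limma p of 0.490. An exact two-sided permutation test of 6 pups against 6 gave p = 0.00433, where the smallest p possible is 0.00216. Without litter 1 of saline the difference was -0.17 and no longer passed the unadjusted threshold, and with log2(TPM + 1), which shrinks differences of low genes, it was -0.073. In Low Protein Gclc stood at -0.10 from saline (SE 0.066, exact permutation p = 0.195) and after Poly I:C at -0.021 (exact permutation p = 0.703).

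Gclm, the modifier subunit that pairs with Gclc, did not pass the test in any comparison. It averaged 0.447 ± 0.077 TPM in saline, 0.457 ± 0.050 in Low Protein, 0.438 ± 0.061 after MAM and 0.495 ± 0.037 after Poly I:C (mean ± SD, n = 6), and its log2 difference from saline after Poly I:C was 0.16 (95% interval -0.068 to 0.39). That value depended on the saline litters. Without saline litter 1 it was 0.32 and passed the unadjusted threshold, and without saline litter 2 it was -0.0026. Gsr, the reductase that regenerates glutathione, averaged between 0.543 and 0.555 TPM in all 4 groups. Its 3 intervals for the log2 difference from saline lay between -0.128 and 0.0905.

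Slc7a11, the cystine transporter of system xc-, was the least even gene. It ran from 0.215 through a median of 0.246 to 0.356 TPM in saline, from 0.107 through 0.197 to 0.611 in Low Protein, from 0.148 through 0.260 to 0.374 after MAM and from 0.173 through 0.240 to 0.335 after Poly I:C. Within Low Protein the highest pup was 5.69 times the lowest, and both its highest pup (pup 2.2, 0.611) and its lowest (pup 1.3, 0.107) lay outside the range of every other group. Its log2 differences from saline were -0.081 in Low Protein, -0.038 after MAM and -0.081 after Poly I:C. Each had an SE of 0.31, so that the Low Protein interval of -0.72 to 0.56 leaves room for changes far larger than those seen in Gclc.

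In the thioredoxin system, Txnrd1, the cytosolic thioredoxin reductase, lay on either side of saline in the 2 injected groups. It ran from 2.404 through a median of 2.66 to 2.73 TPM in saline and from 2.25 through 2.66 to 2.80 in Low Protein. In MAM it ran from 2.33 through 2.46 to 2.57, and after Poly I:C from 2.55 through 2.83 to 3.07. The log2 difference from saline was -0.093 after MAM and 0.092 after Poly I:C, each with an SE of 0.058, and neither passed by limma (adjusted p = 0.547 and 0.653). The exact permutation test, which uses only the pups compared, gave p = 0.039 for MAM, with 6 of 6 pups below the saline median, and p = 0.0996 for Poly I:C. The Txnrd1 difference after MAM shrank to -0.028 when pups were scaled by the median of ratios and to -0.052 by the upper quartile, beside a median of all genes of -0.071 on the deposited scale.

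Srxn1, sulfiredoxin, which repairs overoxidized peroxiredoxins, had the lowest log2 differences from saline of the 10 genes in Low Protein and after Poly I:C, but did not pass the test. It averaged 0.330 ± 0.059 TPM in saline, 0.276 ± 0.056 in Low Protein, 0.294 ± 0.039 after MAM and 0.280 ± 0.070 after Poly I:C (mean ± SD, n = 6), and in each treatment 5 of 6 pups were below the saline median. The log2 differences from saline were -0.26 (exact permutation p = 0.141) in Low Protein, -0.16 (p = 0.277) after MAM and -0.26 (p = 0.190) after Poly I:C, each with an SE of 0.16. Leaving out saline pup 1.2, the lowest of its group at 0.243, took the differences to -0.35 in Low Protein and -0.34 after Poly I:C, both past the unadjusted limma threshold, and to -0.24 after MAM, which did not pass. The Low Protein difference depended on the litter, and was -0.48 without Low Protein litter 1 and -0.045 without Low Protein litter 2.

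Of the quinone and heme genes, Nqo1, the quinone reductase that is the classical NRF2 target, averaged 0.317 ± 0.040 TPM in saline, 0.301 ± 0.043 in Low Protein, 0.302 ± 0.065 after MAM and 0.288 ± 0.039 after Poly I:C (mean ± SD, n = 6). Its log2 differences from saline ran from -0.14 after Poly I:C to -0.081 in Low Protein, each with an SE of 0.13. Hmox1, heme oxygenase 1, which breaks down heme to biliverdin, iron and carbon monoxide, ran from 1.01 through a median of 1.29 to 1.37 TPM in saline and from 0.943 through 1.27 to 1.93 in Low Protein. In MAM it ran from 1.21 through 1.40 to 1.92, and after Poly I:C from 0.768 through 1.08 to 1.58. Its log2 difference from saline was 0.25 after MAM (SE 0.16, exact permutation p = 0.106) and -0.17 after Poly I:C (p = 0.327).

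Since MAM and Poly I:C lay on opposite sides of saline for Txnrd1 and Hmox1, the treatments were compared directly. Between MAM and Poly I:C, 3 of the 10 genes differed at an unadjusted p under 0.05, where 18.4% of all genes tested did. Txnrd1 was lower after MAM by -0.18 on the log2 scale (SE 0.058, 95% interval -0.30 to -0.064, adjusted p = 0.103). All 6 MAM pups were below the Poly I:C median, and the ranges overlapped only between 2.55 and 2.57 TPM. The exact permutation p was 0.00433. By the median of ratios or the upper quartile the Txnrd1 difference was -0.12, still past the unadjusted threshold. Gclc was lower after MAM by a similar amount, -0.18 (SE 0.066, adjusted p = 0.159), with 6 of 6 pups below the Poly I:C median and an exact permutation p of 0.0173. Hmox1 was higher after MAM by 0.42 (SE 0.16, 95% interval 0.079 to 0.76, adjusted p = 0.175), a level 1.34 times that after Poly I:C, with 6 of 6 pups above the Poly I:C median and an exact permutation p of 0.0498.

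None of the 3 passed the adjusted threshold, which 0.822% of genes tested did in that comparison, and none separated without overlap, as 3.37% of genes did. Hmox1 rested in part on single litters and pups. It was at 0.17 without Poly I:C litter 1, 0.28 without MAM litter 2, 0.32 without Poly I:C pup 1.3 and 0.34 without MAM pup 2.2, each short of the unadjusted threshold, and at 0.67 without Poly I:C litter 2. Gclc missed the unadjusted threshold when pups were scaled by the median of ratios or the upper quartile (-0.11 in both), without MAM litter 1 (-0.18) and without Poly I:C litter 1 (-0.15). On litter means, which leave 2 values a group, none of the 3 genes passed it. Low Protein differed from MAM in 0 of the 10 genes (8.70% of all genes) and from Poly I:C in 0 of the 10 (4.60% of all genes). In a limma F test over the 4 groups, 2 of 10 passed at an unadjusted p under 0.05, Gclc (adjusted p = 0.347) and Txnrd1 (adjusted p = 0.369), beside 12.8% of all genes, and 0 of 10 passed when adjusted, beside 0.158%. Both F calls were lost by the median of ratios (adjusted p = 0.495 for Gclc and 0.463 for Txnrd1), and that of Txnrd1 also by the upper quartile (adjusted p = 0.450).

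Litters of the same treatment stood apart for some members, about as often as for all genes tested. The counts of 10 members were 2 in Poly I:C, 2 in Low Protein, 1 after MAM and 0 in saline. In Poly I:C, the litters did not overlap for Hmox1 (0.768 to 1.05 TPM in litter 1 and 1.12 to 1.58 in litter 2) or Nfe2l2 (0.204 to 0.257 and 0.272 to 0.288). In Low Protein they did not overlap for Srxn1 (0.282 to 0.363 in litter 1 and 0.198 to 0.257 in litter 2) or Txnrd1 (2.73 to 2.80 and 2.25 to 2.60). In MAM the same held for Gsr alone (0.548 to 0.604 and 0.512 to 0.546), and in saline for no member. Over all genes tested, the litters did not overlap for 18.3% after Poly I:C, 17.2% in Low Protein, 6.53% after MAM and 4.70% in saline.

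The members did not move as 1 block from pup to pup. With the group means removed, the 45 pairs of members had a median Pearson r of 0.23 over the 24 pups, from -0.43 (Gclm with Srxn1) to 0.83 (Nfe2l2 with Hmox1), and 31 pairs were above 0. The pups share litters and are given as a description, with no p. Nfe2l2, Slc7a11, Nqo1 and Hmox1, singled out after the values were seen, varied together, with r from 0.59 to 0.83 in their 6 pairs. For Nfe2l2 with Hmox1, Spearman's rho was 0.82, and r was 0.75 without the 2 pups farthest from the median of Nfe2l2. Gclc and Txnrd1 formed another pair (r = 0.61, rho = 0.57, and r = 0.38 without the 2 farthest pups), and each was also related to Gsr (r = 0.53 and 0.51). The glutamate-cysteine ligase subunits Gclc and Gclm did not go together (r = -0.018).

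The same single pups set these extremes. Low Protein pup 2.2 was the highest of its group for 6 of the 10 genes (Nfe2l2, Keap1, Slc7a11, Gclm, Nqo1 and Hmox1), and Low Protein pup 1.3 was the lowest for 4 (Nfe2l2, Slc7a11, Nqo1 and Hmox1). MAM pup 2.1 was the highest of its group for 6 genes, and Poly I:C pup 1.3 the lowest for 5. Low Protein pup 2.2 also had the highest summed level of the 11 meninges and fibroblast markers (86.1 TPM, against a saline range of 17.1 to 32.5), and Low Protein pup 1.3 the lowest (10.7). Without pup 2.2, the log2 difference of Slc7a11 between Low Protein and saline was -0.35, and without pup 1.3 it was 0.15.

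The members that varied together also varied with the markers of non-neuronal tissue, as a description over 70 relations of a member with a marker list. With the group means removed, Slc7a11 and the mean log2 level of the meninges and fibroblast markers, among them Col1a1, Dcn and Lum, had r = 0.95 over the 24 pups (rho = 0.88, and r = 0.90 without the 2 farthest pups). For the same markers r was 0.87 with Nfe2l2, 0.71 with Hmox1 and 0.66 with Nqo1. The 10 endothelial markers gave 0.82 with Hmox1, 0.80 with Nfe2l2 and 0.79 with Slc7a11, and the 15 erythroid markers 0.78 with Nfe2l2, 0.72 with Hmox1 and 0.71 with Slc7a11. The 9 choroid plexus markers gave 0.72 with Nqo1, 0.72 with Hmox1, 0.60 with Nfe2l2 and 0.45 with Slc7a11. Txnrd1 instead followed the 13 dorsal forebrain markers (r = 0.81, rho = 0.78, and r = 0.77 without the 2 farthest pups). Gclc did so less closely (r = 0.44, rho = 0.35, and r = 0.24 without the 2 farthest pups), as did Gsr (r = 0.40, rho = 0.36, and r = 0.34). Slc7a11 did not (r = -0.062). Values of 1 pup share a library and a scaling, and the part of these markers in the members' levels was not tested.

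**Figure D3:**
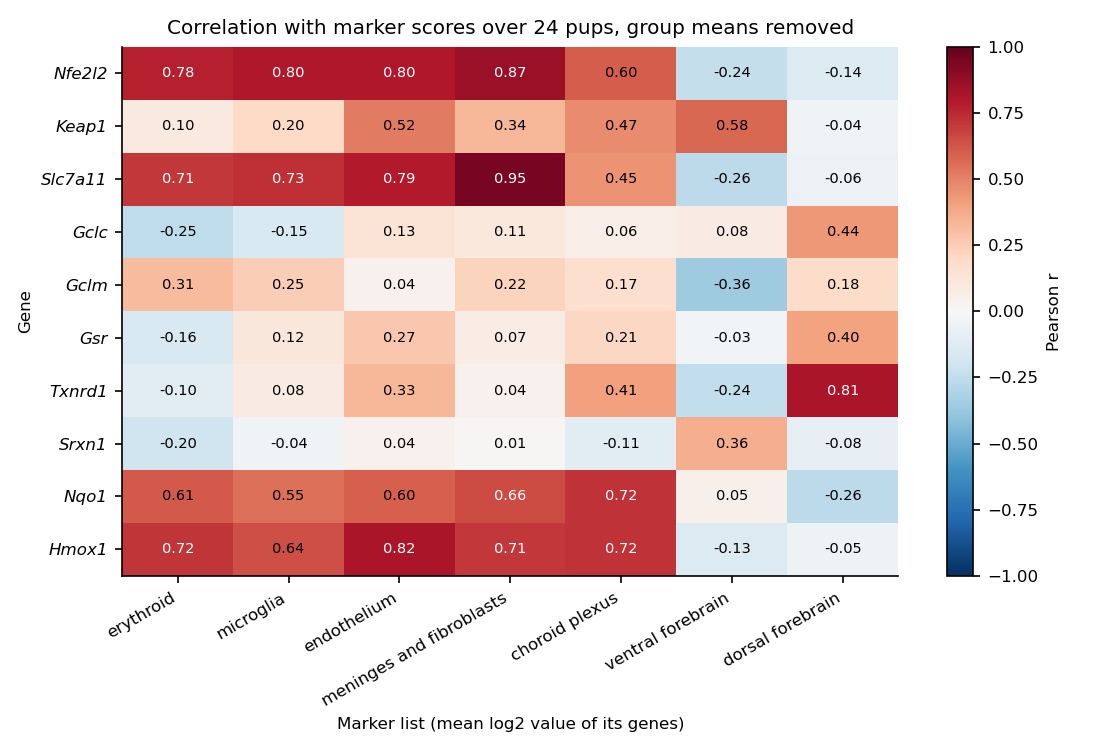
Pearson r (colour and printed value) between the log2 TPM of each gene (rows) and the mean log2 level of each marker list (columns) over the 24 pups, with the group means removed. Nfe2l2, Slc7a11, Nqo1 and Hmox1 have positive values with blood, microglia, endothelium, meninges and choroid plexus, and Txnrd1 has its highest with dorsal forebrain, 0.81.

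**Figure D4:**
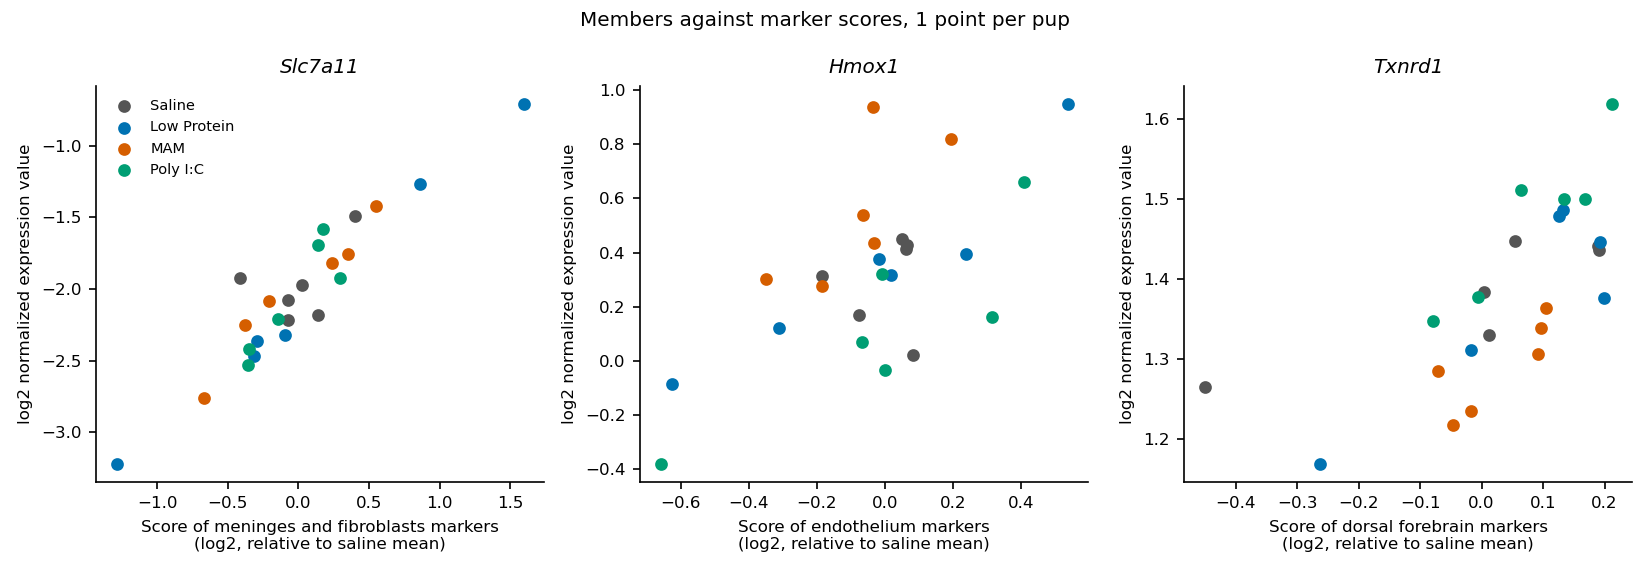
Log2 TPM (vertical axes) of Slc7a11, Hmox1 and Txnrd1 against the marker score of the list most closely related to it (horizontal axes, mean log2 level relative to the saline mean), 1 point per pup coloured by group. Slc7a11 lies along a line from Low Protein pup 1.3 to Low Protein pup 2.2. Txnrd1 runs from 1.22 to 1.36 in MAM pups and from 1.35 to 1.62 in Poly I:C pups. The part of the markers in this difference was not tested.

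The marker lists were also set beside the differences between groups. In MAM, 6 of 13 microglia markers were higher than in saline at an unadjusted p under 0.05 and 0 were lower (median log2 difference 0.27). Of all genes tested, 2.13% were higher and 7.91% lower there. The summed level of the microglia markers was 17.8 to 22.2 TPM after MAM, against 14.2 to 17.9 in saline and 14.1 to 20.8 after Poly I:C. Over the 24 pups with the group means removed, Hmox1 had r = 0.64 with the microglia markers. Of 15 erythroid markers, 2 were higher than in saline after MAM, 2 in Low Protein and 1 after Poly I:C, and 0 were lower in each. Their median log2 differences were 0.21 after MAM, 0.19 in Low Protein and 0.23 after Poly I:C. Of 13 microglia markers, 1 was higher in Low Protein and 1 after Poly I:C, with 0 lower and a median of 0.12 in both. Among all genes tested, 2.65% were higher in Low Protein and 3.96% after Poly I:C. In MAM against Poly I:C, 1 of 13 microglia markers was higher (median 0.21), and no endothelial marker of 10, meninges marker of 11 or erythroid marker of 15 passed. Of all genes tested, 3.71% were higher and 14.7% lower in that comparison. The part of the microglia and erythroid markers in the Hmox1 difference was not tested. Of 13 dorsal forebrain markers, 0 differed between MAM and Poly I:C (median log2 difference -0.028, summed level 602 to 677 TPM after MAM and 608 to 706 after Poly I:C). Their part in the Txnrd1 and Gclc differences was not tested. Ventral forebrain markers, Gad1 and Lhx6 among them, were lower than in saline for 5 of 9 in Low Protein (median -0.39) and 3 of 9 after MAM (-0.34). Of all genes tested, 4.55% were lower in Low Protein and 7.91% after MAM. With the group means removed, r with the ventral forebrain markers ran from -0.36 (Gclm) to 0.58 (Keap1) over the 10 members. It was 0.36 for Srxn1 and 0.080 for Gclc. The part of the ventral forebrain markers in the members' differences was not tested. Choroid plexus markers were below saline after MAM by sign for 9 of 9 (median -0.34), with 0 passing. Their mean log2 level relative to saline was -1.53 in MAM pup 1.3 and -1.23 in MAM pup 2.3. In the other MAM pups it was between -0.059 and 0.50. Poly I:C pup 1.3, the lowest of its group for 5 members, Hmox1 among them, was at -1.97. The part of the choroid plexus markers in the members' differences was not tested.

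Other genes of the pathway were taken from 6 lists of partners and neighbours, and counts are of an unadjusted limma p under 0.05. In the list of NRF2 control, 10 of 11 genes were tested, and 0 passed after MAM, where 10.0% of all genes tested did. Maff, a small MAF that can pair with NRF2, was lower than saline in Low Protein (log2 difference -0.31, adjusted p = 0.69) and after Poly I:C (-0.42, adjusted p = 0.389). Sqstm1, the autophagy receptor p62 that competes with NRF2 for KEAP1, was lower after Poly I:C (-0.15, adjusted p = 0.414). Among all genes tested, 4.55% were lower than saline in Low Protein and 5.48% after Poly I:C. Between MAM and Poly I:C, Maff was higher after MAM by 0.63 with an adjusted p of 0.0489, the only gene of the 6 pathway lists that passed the adjusted threshold in any comparison. In that comparison 0.822% of all genes tested passed it, and the alternative settings were run for the members only, not for Maff. In the same comparison Cul3, the scaffold of the ligase that KEAP1 serves, was lower after MAM by -0.39 with no overlap between the 6 pups and 6 pups (adjusted p = 0.111). There, 3.37% of all genes tested did not overlap. The list as a whole thus had 1 gene higher and 1 lower of 10 after MAM against Poly I:C, beside 3.71% of all genes tested higher and 14.7% lower.

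Glutathione-using enzymes were the longest of the pathway lists. Of 23 genes tested, 4 were lower and 0 higher than saline after Poly I:C, beside 5.48% lower and 3.96% higher of all genes. Among the 4 were Gsto1 (-0.31, adjusted p = 0.26), Gstt1 (-0.37, adjusted p = 0.348) and Gstm7 (-0.32, adjusted p = 0.348), which are glutathione transferases. In Low Protein 1 was higher, the transferase Gsta4 (0.32, adjusted p = 0.666), and 2 were lower, Mgst3 (-0.23) and Gstm7 (-0.23). Beside these, 2.65% of all genes were higher and 4.55% lower in Low Protein. In MAM 2 were higher, the peroxidase Gpx1 (0.22, adjusted p = 0.495) and Gstp1 (0.11, adjusted p = 0.495), and 0 were lower. Beside these, 2.13% of all genes were higher and 7.91% lower after MAM. The median log2 difference of the list was -0.038 after Poly I:C, 0.043 in Low Protein and -0.025 after MAM, and 0 of 23 passed the adjusted threshold in each. Against Poly I:C, 5 of 23 were higher and 0 lower after MAM, beside 3.71% of all genes tested higher and 14.7% lower. In Low Protein against Poly I:C, 4 were higher and 0 lower, beside 2.35% and 2.24% of all genes. These comparisons share the Poly I:C pups, and 0 of 23 passed the adjusted threshold in either. Glutathione transferases belong to families of similar sequence, among which reads may have been shared.

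Of 18 thioredoxin and peroxide genes, 2 were higher after Poly I:C, namely Txnip, the inhibitor of thioredoxin (0.44, adjusted p = 0.355), and Msrb1, a methionine sulfoxide reductase (0.24, adjusted p = 0.37, with no overlap with saline). Msrb1 was also higher after MAM (0.23, adjusted p = 0.49), the only 1 of 18 there, and 0 passed in Low Protein. Of 8 genes of NADPH supply, Idh1 was lower after MAM (-0.17, adjusted p = 0.495) and 0 passed in the other comparisons with saline. Of 8 genes of heme and iron handling, 1 was higher in each treatment, the biliverdin reductase Blvra in Low Protein (0.48, adjusted p = 0.671), the ferritin light chain Ftl1 after MAM (0.15, adjusted p = 0.495) and the iron exporter Slc40a1 after Poly I:C (0.31, adjusted p = 0.478). Of 13 genes of detoxification and efflux, 0 passed in each. None of these had an adjusted p under 0.05. Among all genes tested, 7.20% passed the unadjusted threshold in Low Protein, 10.0% after MAM and 9.44% after Poly I:C, in either direction. After Poly I:C, 0.450% of all genes did not overlap with saline.

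By a rule of likeness, the genes whose log2 TPM was closest to the mean centred log2 TPM of the 10 members over the 24 pups were Slc38a3 (r = 0.92), a glutamine transporter, Mmp2 (r = 0.92), a matrix metalloproteinase, Gstt3 (r = 0.91), a glutathione transferase, Emp1 (r = 0.91) and Tgm2 (r = 0.90), a transglutaminase. The members enter this mean centred but not scaled, so those that vary more between pups, Slc7a11 most of all, move it more.

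The promoters were read to see which members carry the letters of an antioxidant response element close to their start. RefSeq promoters of the GRCr8 assembly, 250 bases before to 50 after a start, were given for 8 members (Gsr and Hmox1 were without an entry, and Txnrd1 had 2). The core TGACNNNGC, searched on both strands, was in the window of 3 of these 8 genes, Gclm, Txnrd1 and Nfe2l2, and in 12.1% of all 33469 promoters. The wider form TGANNNNGC, which includes every match of the first, was in 7 of the 8 genes and in 40.5% of all promoters. Gclc held neither form in its window. In Nfe2l2 the match TGACGCCGC lay after the start, at position 38. The stretches around the core in Gclm and Txnrd1 are shown because these genes are the subunit partner of Gclc and the member with the lowest p between MAM and Poly I:C. They are written 5′ to 3′ along the gene, and the capitals mark the core, which reads on the opposite strand in both.
Gclm, chr2:213031943-213031991 (GRCr8, plus strand): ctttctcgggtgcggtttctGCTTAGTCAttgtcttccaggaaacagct
Txnrd1, chr7:22755954-22756002 (GRCr8, minus strand): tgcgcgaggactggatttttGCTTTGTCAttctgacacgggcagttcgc
Counted from the start, the core begins at position -172 in Gclm and -78 in Txnrd1, in the window of 1 of its 2 starts. Gclm, with its core, did not pass the test in any comparison, Txnrd1 passed the unadjusted test between MAM and Poly I:C, and a match of letters is a description that shows neither binding nor use.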

How the data were processed

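The authors aligned reads to rn6 with STAR (version 2.4.1d), quantified them over RefSeq transcripts by expectation-maximization in Partek, and deposited TPM values with an offset of 0.0001, as the study's methods and the submitters' processing notes state. The deposited TPM values are not counts, so no count model was used. Each value times the gene's GRCr8 span falls in steps that 1 read is worth. Multiples up to 8 gave an approximate depth, although only 46.0% to 54.2% of these low values lay within 0.05 of a whole number.

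Log2 TPM of the 12654 genes above the offset in all pups was fitted with limma (version 3.58.1, R version 4.3.3), with all 24 pups in 1 fit and the group as factor, with Benjamini-Hochberg adjustment of p over these genes. The study's limit, a mean above 1 in every group, passes 5086 genes and 3 of the 10 members and was an alternative. Single genes were also compared by exact two-sided permutation tests over 924 splits (scipy 1.17.1). Other alternatives were pseudocounts of 0.1 and 1, other scalings, the litter, a replicate block and each pup and litter left out. The fit was tested on simulated data.

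The members and lists were chosen with earlier results of these data known. Named were all members, up to 3 genes with the lowest p per pathway list and comparison with saline, and the 5 genes most like the members' mean. Genes of MAM against Poly I:C, and members singled out for their correlations, were chosen after their values were seen. Litters were read from the sample titles.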

Additional observations from a re-analysis of the deposited data

How the results depend on the processing

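Over 10 other settings and 32 fits without a pup or litter, 0 members passed an adjusted p under 0.05. With the study's limit only 3 members were tested, of which 0 passed after MAM and 1 in the F test at an unadjusted p. The F test gave 0 by the median of ratios, 1 by the upper quartile and 0 on litter means. MAM against Poly I:C gave 0 on litter means, which leave 2 values a group. Without a pup or litter, the counts ran from 0 to 2 in Low Protein, 0 to 1 after MAM, 0 to 1 after Poly I:C, 0 to 2 in the F test, 0 to 2 in Low Protein against MAM, 0 to 2 in Low Protein against Poly I:C and 1 to 4 after MAM against Poly I:C.

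Signs turned only for differences that had not passed the test. By the median of ratios Txnrd1 in Low Protein became 0.019, and after MAM Keap1 became 0.026, Slc7a11 0.027, Gclm 0.040 and Gsr 0.056. By the upper quartile, after MAM, Keap1 became 0.0021, Slc7a11 0.0029, Gclm 0.016 and Gsr 0.031. With log2(TPM + 1), Slc7a11 in Low Protein became 0.019.

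Without a pup or litter, the log2 differences from saline that turned sign ranged in Low Protein from -0.16 to 0.029 (Nfe2l2), -0.083 to 0.020 (Keap1), -0.35 to 0.15 (Slc7a11), -0.12 to 0.20 (Gclm), -0.075 to 0.015 (Gsr), -0.099 to 0.087 (Txnrd1), -0.18 to 0.015 (Nqo1) and -0.075 to 0.16 (Hmox1). In MAM they ranged from -0.088 to 0.015 (Keap1), -0.16 to 0.11 (Slc7a11), -0.19 to 0.14 (Gclm), -0.056 to 0.037 (Gsr) and -0.19 to 0.0098 (Nqo1). In Poly I:C they ranged from -0.12 to 0.17 (Nfe2l2), -0.20 to 0.035 (Slc7a11), -0.053 to 0.016 (Gclc), -0.0026 to 0.32 (Gclm), -0.028 to 0.013 (Gsr) and -0.41 to 0.081 (Hmox1). The cause was not tested.

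Gclc after MAM kept its sign under all 41 of its alternatives, from -0.23 to -0.073, with an unadjusted p under 0.05 in 40 of them and an adjusted p from 0.260 to 0.966. In MAM against Poly I:C, Gclc stayed under 0.05 in 36 of 41, Txnrd1 in 41 of 42 (all but litter means) and Hmox1 in 37 of 42. Srxn1 in Low Protein passed without Low Protein pup 1.2 (-0.35), saline pup 1.2 (-0.35) or Low Protein litter 1 (-0.48), and after Poly I:C without pup 2.1 (-0.36) or saline pup 1.2 (-0.34). Gclc in Low Protein passed without Low Protein litter 1 (-0.19), Gclm after Poly I:C without saline litter 1 (0.32), and Hmox1 after Poly I:C without litter 2 of that group (-0.41).

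In the F test Gclc stayed under 0.05 in 31 of 40 alternatives (p up to 0.148) and Txnrd1 in 26 of 41 (p up to 0.279), each crossing it without single MAM pups and, for Txnrd1, single Poly I:C pups.

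The numbers in the sample names mark dams and pups within a group and do not pair groups. Over 36 pairs of the same number in other groups, the correlation of deviations had a median of 0.036 (from -0.16 to 0.33), against -0.0024 for other numbers. With the replicate block the counts were 0 in Low Protein, 1 after MAM, 0 after Poly I:C, 3 after MAM against Poly I:C and 2 in the F test.

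The counting error that depth sets was estimated for Srxn1 alone, and 2 litters a group limit statements on the treatment of the dam.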
